A study of Mus musculus with 48 samples.

Results

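This account follows mmu-miR-205-5p, mmu-miR-203-3p and mmu-miR-31-5p (written without the mouse prefix from here on), microRNAs best known from basal and squamous epithelium, through the airways and blood of allergic and non-allergic mice. They are 3 of the 1409 entries of the deposited small RNA count tables, chosen by name. C57BL/6 mice were allergic (repeated intraperitoneal injections of 50 ug ovalbumin with alum, then 50 ug ovalbumin into the airway on consecutive days), immunized (the same injections, then saline alone into the airway) or untreated, and the treated mice were sampled on day 4 after the first airway dose. Immunized and untreated mice are called non-allergic where they form 1 group. Small RNA was sequenced from cell-free lavage fluid, from the lavage cell pellet, which the labels describe as rich in blood-derived cells, and from serum, each in 7 allergic, 4 immunized and 3 untreated libraries. Epithelial brushings, each of which may pool several mice, gave 3 allergic, 2 immunized and 1 untreated library. All untreated libraries belong to library set 2 and all immunized ones to sets 3 and 4, while allergic libraries are in all 3 sets, so the kind of control and the library set cannot be told apart.

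A microRNA is cut from a hairpin precursor and loaded into an Argonaute protein, and bases 2 to 8 of the loaded strand, the seed, pair with target mRNAs. miR-205-5p is abundant in basal cells of stratified and pseudostratified epithelia and, in dog and human cell lines, represses ZEB1 and ZEB2, transcription factors that switch off epithelial genes. miR-203-3p rises as skin cells leave the basal layer and, in mouse skin, represses p63, the master regulator of basal cells. miR-31-5p is found in skin and other epithelia and, in human keratinocytes, represses the hypoxia-response inhibitor HIF1AN.

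The mature sequences below, from RefSeq (GRCm38.p6, 5′ to 3′), carry the seed in capitals and show that the 3 microRNAs, although grouped by tissue, are not a sequence family.
miR-205-5p: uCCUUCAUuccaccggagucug
miR-203-3p: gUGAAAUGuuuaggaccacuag
miR-31-5p: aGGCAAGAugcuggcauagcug
The opposite arms of the same hairpins, whose counts are given further on, are shown for comparison.
miR-205-3p: gAUUUCAGuggagugaagcuca
miR-203-5p: aGUGGUUCuugacaguucaaca
miR-31-3p: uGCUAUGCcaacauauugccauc
All 3 members matched the RefSeq table by name, and none of its 1679 mature mouse microRNAs other than the member itself has the same 7 seed bases. The genes lie on 3 chromosomes. miR-205-5p is at chr1:193507503-193507524 on the minus strand, inside an exon of the long noncoding RNA gene 4631405K08Rik. miR-203-3p is at chr12:112130927-112130948 on the plus strand, where the GENCODE annotation of the same assembly has no gene other than Mir203 itself. miR-31-5p is at chr4:88910614-88910635 on the minus strand, inside an exon of the long noncoding RNA gene AL805899.1.

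Serum libraries were the deepest, at 137638 to 2738223 counts, and cell libraries ranged most, at 43087 to 960796 counts. Brushings had 113004 to 654157 counts and fluid had 135707 to 561803. The 3 members were counted in all 48 libraries. Levels below are CPM, counts scaled to a common library size, after TMM scaling over all libraries. A count of 3, taken as the floor, stood at 4.14 to 46.3 CPM in cells and 1.82 to 26.9 CPM in serum, the compartments with the widest range. A list of 11 other epithelial microRNAs (the miR-200 family, the miR-183 cluster, miR-375 and others) held 11.1% to 15.1% of the counts in brushings, 8.89% to 17.1% in fluid, 0.308% to 3.53% in cells and 0.0446% to 0.345% in serum. Erythroid microRNAs held 21.9% to 70.5% of the serum counts and 5.53% to 50.9% of the cell counts. CPM values are shares of a library's counts, so each level also depends on the other RNA in that library. A group's difference may come from fewer cells of a type, from less RNA per cell or from a change in the other RNA. These cannot be told apart here.

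Means of the 3 members over the allergic or over all non-allergic libraries ranged from 41.0 CPM (miR-31-5p in allergic serum) to 13488 CPM (miR-205-5p in non-allergic brushings). In allergic mice miR-205-5p averaged 12247 ± 2740 CPM in fluid, 412 ± 173 CPM in cells and 1501 ± 702 CPM in serum (SD, n = 7 each), and 11950 ± 3227 CPM in brushings (n = 3). It had the highest of these means in every compartment, with a median rank of 24 among all entries of a fluid library. Cells held the least: they lay 3.17-fold below serum (log2 -1.67 ± 0.21 SE, adjusted p = 3.81e-08, edgeR quasi-likelihood test, with 66.9% of all tested microRNAs called), 29.2-fold below fluid (adjusted p = 6.22e-17, with 74.1% called) and 29.9-fold below brushings (adjusted p = 3.14e-16, with 73% called). Fluid and brushings did not differ beyond their spread, with a log2 difference of -0.03 (95% interval -0.57 to 0.51, with 16.9% called).

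In non-allergic mice miR-205-5p averaged 12568 ± 8089 CPM in fluid, 2372 ± 1046 CPM in cells and 1464 ± 880 CPM in serum (n = 7 each), and 13488 ± 5556 CPM in brushings (n = 3). Fluid was 6.55-fold above serum (log2 2.71 ± 0.41, adjusted p = 1.76e-06) and 4.74-fold above cells (log2 2.24 ± 0.40, adjusted p = 3.31e-05), and cells lay 5.32-fold below brushings (log2 -2.41 ± 0.47, adjusted p = 9.51e-05). Cells and serum were not told apart here, with a log2 difference of 0.47 (interval -0.33 to 1.27) that was called only without immunized brushing library 2 (0.81, adjusted p = 0.0476) or with total count scaling (0.98, adjusted p = 0.0488). Neither were fluid and brushings (interval -1.19 to 0.85). These tests stand against a background in which 77% of all tested microRNAs were called between fluid and serum, 68.3% between fluid and cells, 11.2% between fluid and brushings, 68% between cells and serum and 62.1% between cells and brushings.

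miR-203-3p was more evenly spread. In allergic mice it averaged 475 ± 108 CPM in fluid, 202.8 ± 65.0 CPM in cells, 465 ± 130 CPM in serum and 562 ± 250 CPM in brushings (n = 7 each, 3 for brushings), and fluid exceeded cells by 2.16-fold (log2 1.11 ± 0.24, adjusted p = 1.45e-04). In non-allergic mice it averaged 481 ± 163 CPM in fluid, 91.1 ± 32.8 CPM in cells, 478 ± 327 CPM in serum and 508 ± 35.2 CPM in brushings, and fluid was 4.89-fold above cells (log2 2.29 ± 0.38, adjusted p = 8.60e-06). The other compartments lay close together in non-allergic mice: fluid and serum (log2 -0.18, interval -0.88 to 0.52), brushings and serum (log2 -0.14, interval -1.04 to 0.76) and fluid and brushings (log2 -0.04, interval -0.93 to 0.84) did not differ beyond their spread, and these 3 values changed sign under another scaling. In allergic mice too, brushings and serum were not told apart (log2 0.46, interval -0.14 to 1.06, adjusted p = 0.169). Of the other epithelial microRNAs, 10 of 10 tested in allergic and 10 of 10 in non-allergic mice were higher in brushings than in serum (with 69.8% and 64% of all microRNAs called).

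miR-31-5p had a graded order. In allergic mice it averaged 633 ± 217 CPM in brushings, 275 ± 92.4 CPM in fluid, 126 ± 48.3 CPM in cells and 41.0 ± 12.3 CPM in serum. Fluid lay 2.40-fold below brushings (log2 -1.26 ± 0.29, adjusted p = 0.00260), a call lost without allergic brushing library 1 (log2 -0.96, adjusted p = 0.0539), and brushings were 17.6-fold above serum (log2 4.14 ± 0.29, adjusted p = 1.26e-13). In non-allergic mice it averaged 592 ± 148 CPM in brushings, 456 ± 185 CPM in fluid, 176 ± 135 CPM in cells and 95.5 ± 58.0 CPM in serum. Brushings exceeded serum by 6.77-fold (log2 2.76 ± 0.35, adjusted p = 1.44e-07), fluid exceeded cells by 2.54-fold (log2 1.34 ± 0.30, adjusted p = 3.37e-04) and cells exceeded serum by 1.77-fold (log2 0.82 ± 0.30, adjusted p = 0.0191). The difference between cells and serum was not called without immunized cell library 4 (log2 0.69, adjusted p = 0.0549) or with no filter on low counts (0.76, adjusted p = 0.0618), and fluid and brushings did not differ beyond their spread (log2 -0.59, interval -1.33 to 0.14).

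**Figure D1:**
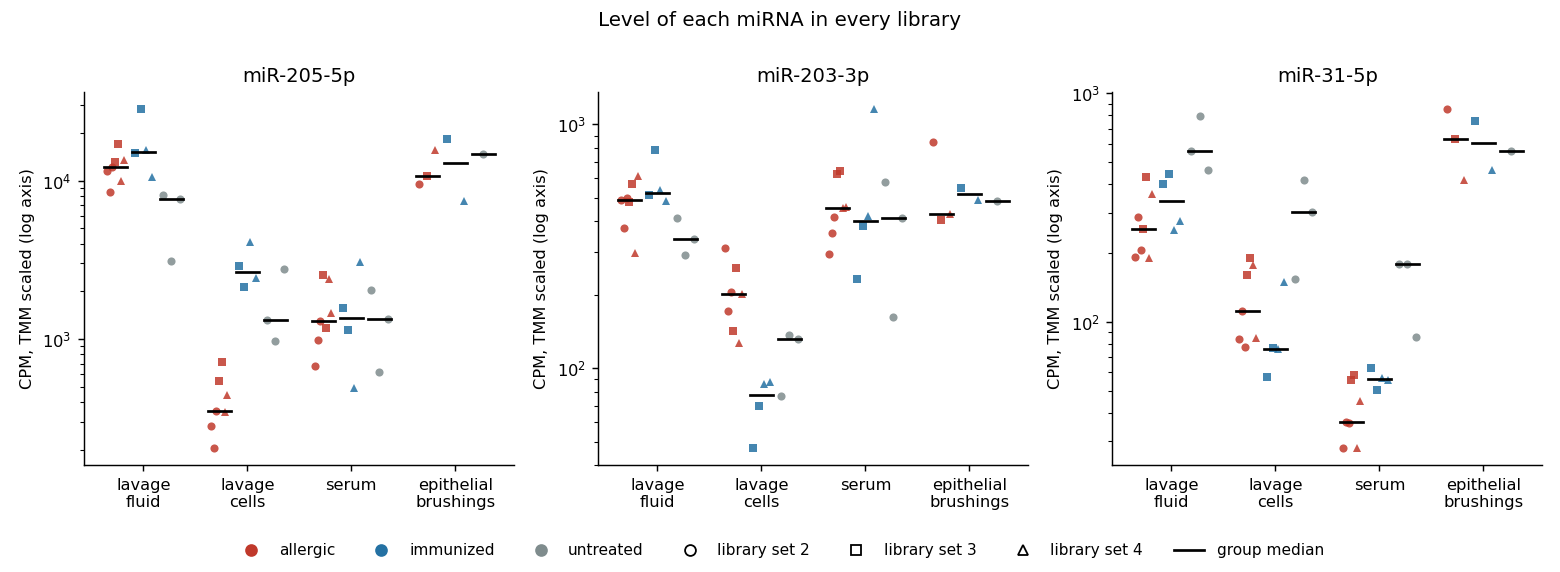
Level of each member in every library (CPM after TMM scaling, log axis), by compartment and treatment; symbols give the library set and bars the group median. miR-205-5p in allergic cells (204 to 716 CPM) lies below every non-allergic cell library (967 to 4097 CPM), and miR-31-5p is high in the untreated libraries of fluid, cells and serum.

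In the lavage cell pellet, miR-205-5p fell and miR-203-3p rose in allergic mice. miR-205-5p stood at 204, 352 and 716 CPM (lowest, median and highest of 7) in allergic cells, against 967, 2442 and 4097 CPM in the 7 non-allergic cell libraries. The groups did not overlap, in all libraries together or within any library set. Overlap, here and below, was looked at for the members alone, with no share over all microRNAs beside it. Sets 3 and 4 each hold only 2 allergic and 2 immunized libraries of fluid, cells or serum, so overlap is a description. The allergic level was 5.36-fold lower (log2 -2.42 ± 0.24, adjusted p = 2.27e-06), the 4th lowest log2 fold change of the 217 microRNAs tested, of which 56.2% were called. miR-205-5p fell against untreated mice (log2 -2.34 ± 0.38, adjusted p = 3.06e-04) and against immunized mice (log2 -2.48 ± 0.33, adjusted p = 1.18e-04), and the difference of these contrasts was 0.14 (interval -0.90 to 1.17). The log2 difference was -2.48 in set 2, -1.98 in set 3 and -3.01 in set 4.

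miR-203-3p stood at 127, 202 and 312 CPM in allergic cells, against 46.9, 86.1 and 137 CPM in non-allergic cells. The ranges overlapped slightly over all libraries and in no single library set. The allergic level was 2.44-fold higher (log2 1.29 ± 0.24, adjusted p = 3.68e-04), the 25th highest of 217. The change was called against untreated mice (log2 1.18 ± 0.37, adjusted p = 0.0174, with 42.9% of microRNAs called) and against immunized mice (log2 1.36 ± 0.32, adjusted p = 0.00481, with 44.7% called). The call against untreated mice was lost without untreated cell library 1 (log2 1.00, adjusted p = 0.0619) or allergic cell library 1 (log2 0.92, adjusted p = 0.0902), and with no filter on low counts (log2 1.28, adjusted p = 0.0542). With total count scaling neither contrast was called (log2 1.05 against untreated and 0.94 against immunized mice). The counts behind these values were small, at 31 to 125 per library in allergic cells and 5 to 23 in non-allergic cells.

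Markers of other cell types moved in the same cell libraries. Over all 217 microRNAs tested, 64 rose and 58 fell. Of the 11 other epithelial microRNAs, 10 were tested and 10 fell, with a median log2 fold change of -1.41 against 0.04 over all microRNAs tested. miR-375-3p, which marks secretory and neuroendocrine epithelial cells, fell by 1.96 on the log2 scale (adjusted p = 6.18e-05), and miR-141-3p, of the miR-200 family, fell by 1.56 (adjusted p = 7.43e-05). The summed share of the list was 0.308% to 1.23% of the counts in allergic cells, against 1.59% to 3.53% in non-allergic cells. Of 6 microRNAs of multiciliated cells, 5 fell, among them miR-34c-5p (log2 -2.03, adjusted p = 1.30e-04). Of 10 blood-cell microRNAs, 7 rose and 2 fell, led by miR-150-5p of lymphocytes (log2 3.59, adjusted p = 3.99e-07) and miR-155-5p of activated lymphocytes and macrophages (log2 2.43, adjusted p = 9.57e-05), and their share was 11% to 34.7% in allergic cells, against 3.92% to 9.80% in non-allergic cells. The part of these shifts in the changes of miR-205-5p and miR-203-3p was not tested.

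The contrasts of miR-31-5p lay apart by control. In cells it stood at 77.3, 83.6 and 112 CPM in the 3 allergic libraries of set 2, against 154, 302 and 419 CPM in the 3 untreated libraries of that set. In sets 3 and 4 it stood at 84.5, 161, 177 and 190 CPM in the 4 allergic libraries, against 57.4, 76.0, 76.7 and 149 CPM in the 4 immunized ones. Its counts were small, at 18 to 81 per library in allergic, 11 to 39 in immunized and 10 to 55 in untreated cells. The cell libraries of set 2 held 184529 to 960796 counts in all in allergic mice, against 43087 to 158955 in untreated mice. The part of depth was not tested. Within set 2 all allergic libraries lay below all untreated ones. In set 3 both allergic libraries (161 and 190 CPM) lay above both immunized ones (57.4 and 76.7 CPM), with a log2 difference of 1.36. In set 4 the groups overlapped, at 84.5 and 177 CPM in allergic and 76.0 and 149 CPM in immunized libraries, with a difference of 0.19. Against untreated mice miR-31-5p fell by 1.48 on the log2 scale (SE 0.43, adjusted p = 0.0115), a call lost without untreated cell library 2 (log2 -1.09, adjusted p = 0.0764). Against immunized mice the log2 fold change was 0.83 ± 0.38 (adjusted p = 0.0887), which was called only without immunized cell library 4 (1.23, adjusted p = 0.0367) or allergic cell library 7 (1.12, adjusted p = 0.0287). The difference of the contrasts was -2.30 ± 0.57 (adjusted p = 0.0456, with 3.23% of microRNAs called). That call held without untreated cell library 1, immunized cell library 4 or allergic cell library 7, and was lost without any 1 of the other 11 libraries (adjusted p up to 0.152), as it was with DESeq2 size factors (-2.43, adjusted p = 0.0679) and total count scaling (-1.94, adjusted p = 0.128). Over both controls the log2 fold change was -0.19 (interval -1.08 to 0.71). It was called only with a replicate block, which joins equal-numbered libraries of different groups (-1.21, edgeR, adjusted p = 0.0310).

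In fluid and serum the difference between the contrasts of miR-31-5p missed the threshold. In fluid of set 2 it stood at 191, 206 and 288 CPM in allergic libraries, against 462, 558 and 799 CPM in untreated ones. In sets 3 and 4 it stood at 190, 255, 362 and 430 CPM in allergic fluid, against 253, 276, 401 and 443 CPM in immunized fluid. The groups did not overlap in set 2 and overlapped in sets 3 and 4. miR-31-5p fell by 1.49 on the log2 scale against untreated mice (SE 0.30, adjusted p = 0.00317, with 27.3% of microRNAs called), against a log2 fold change of -0.16 ± 0.25 against immunized mice (adjusted p = 0.771, with 4.74% called). The difference was -1.34 ± 0.39 (adjusted p = 0.117, with 1.19% called) and was called without allergic fluid library 2 (-1.75, adjusted p = 0.0483) or with no filter on low counts (-1.44, adjusted p = 0.0252). Against both controls miR-31-5p fell by 0.72 on the log2 scale (SE 0.26, adjusted p = 0.0498, with 33.2% called). That call held without immunized fluid library 2 or 4 or allergic fluid library 5 or 7, and was lost without any 1 of the other 10 libraries (adjusted p up to 0.142) and with the filter given the design matrix (adjusted p = 0.0547). Other markers moved in fluid against untreated mice: of 8 mesenchymal and muscle microRNAs tested 4 fell, both endothelial ones tested fell, and of 9 blood-cell microRNAs 6 rose and 1 fell, while of 6 multiciliated ones 2 rose and 0 of 10 other epithelial ones were called. Mesenchymal and muscle microRNAs held 0.515% to 1.03% of the counts in allergic fluid, against 1.69% to 3.63% in untreated fluid, and endothelial ones 0.0680% to 0.162% in allergic fluid, against 0.188% to 0.738% in untreated fluid. Their part in the fall of miR-31-5p was not tested.

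In serum of set 2, miR-31-5p stood at 27.9, 35.9 and 36.5 CPM in allergic libraries, against 85.6, 178 and 179 CPM in untreated ones, which did not overlap. In sets 3 and 4 it stood at 28.0, 45.1, 55.4 and 58.2 CPM in allergic serum, against 50.3, 55.7, 56.5 and 62.8 CPM in immunized serum. The groups overlapped in set 3, and in set 4 both allergic libraries lay below both immunized ones. miR-31-5p fell by 2.22 on the log2 scale against untreated mice (SE 0.42, adjusted p = 0.00118, with 11% of microRNAs called), and the log2 fold change against immunized mice was -0.30 ± 0.34 (adjusted p = 0.999, with 0% called by edgeR and 4 microRNAs at an unadjusted p under 0.05). The difference was -1.92 ± 0.53 (adjusted p = 0.0526, with 2.59% called). It was called without untreated serum library 3 (-2.18, adjusted p = 0.0208), immunized library 3 (-1.91, adjusted p = 0.0325), immunized library 4 (-2.02, adjusted p = 0.0391) or allergic library 6 (-2.11, adjusted p = 0.0278). Over both controls miR-31-5p had the 6th lowest log2 fold change of 347 microRNAs in serum, at -1.08 ± 0.34 with an adjusted p of 0.372 by edgeR. In that comparison edgeR, DESeq2's Wald test and limma each called 0 microRNAs, while 27 had an unadjusted p under 0.05 by edgeR. With a replicate block, which joins equal-numbered libraries of different groups, miR-31-5p was at -1.89 and called (edgeR, adjusted p = 0.0173). Serum depth moved with the group: untreated serum libraries, all in set 2, held 137638 to 890460 counts and immunized ones 707729 to 2738223. The allergic serum libraries of set 2 held 2143700, 1518330 and 1193230 counts, each more than any untreated one. Their counts of miR-31-5p were 23, 31 and 27, against 20, 64 and 39 in the untreated libraries. Erythroid microRNAs held 51.3% to 70.5% of the counts in untreated serum, 29.4% to 56.5% in immunized serum and 21.9% to 66.7% in allergic serum of all sets. Within set 2 they held 55.7% to 66.7% in allergic serum, inside the untreated range. Of 3 multiciliated microRNAs tested in serum against untreated mice 2 fell, of 8 mesenchymal and muscle ones 1 fell, of 10 blood-cell ones 1 rose, and 0 of 9 other epithelial ones were called. The part of depth and of these markers in the result was not tested.

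miR-205-5p and miR-203-3p were not called in allergic fluid, serum or brushings, and the untreated and immunized contrasts did not call them in fluid or serum either. In fluid miR-205-5p stood at 8503, 12178 and 17002 CPM (lowest, median and highest) in allergic mice, against 3119, 10596 and 28107 CPM in non-allergic mice, a log2 difference of 0.05 with an interval from -0.48 to 0.58. miR-203-3p stood at 297, 490 and 613 CPM in allergic fluid, against 291, 485 and 787 CPM in non-allergic fluid (log2 -0.06, interval -0.41 to 0.29). Both small values changed sign under some alternatives. In set 2 alone the groups of miR-205-5p did not overlap, with 8503 to 12178 CPM in allergic fluid against 3119 to 8160 CPM in untreated fluid, but the contrast against untreated mice was not called (log2 0.57, adjusted p = 0.209). In serum the intervals were wider, from -0.85 to 0.65 for miR-205-5p and from -0.74 to 0.65 for miR-203-3p, with levels of 672 to 2532 CPM and 294 to 644 CPM in allergic mice against 488 to 3049 CPM and 162 to 1152 CPM in non-allergic mice.

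In brushings the 3 allergic libraries held 9568, 10660 and 15622 CPM of miR-205-5p, against 7433, 14680 and 18352 CPM in the non-allergic ones. miR-203-3p stood at 406, 429 and 850 CPM in allergic brushings, against 487, 488 and 548 CPM in non-allergic ones. miR-31-5p stood at 416, 633 and 850 CPM in allergic brushings, against 463, 561 and 754 CPM in non-allergic ones. Every pair of groups overlapped, and none of the 3 was called (log2 -0.06, 0.12 and 0.13, intervals reaching from -1.04 to 0.92, with 2.94% of microRNAs called). The brushing library with 850 CPM of both miR-203-3p and miR-31-5p was the shallowest of its kind, with 113004 counts.

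**Figure D2:**
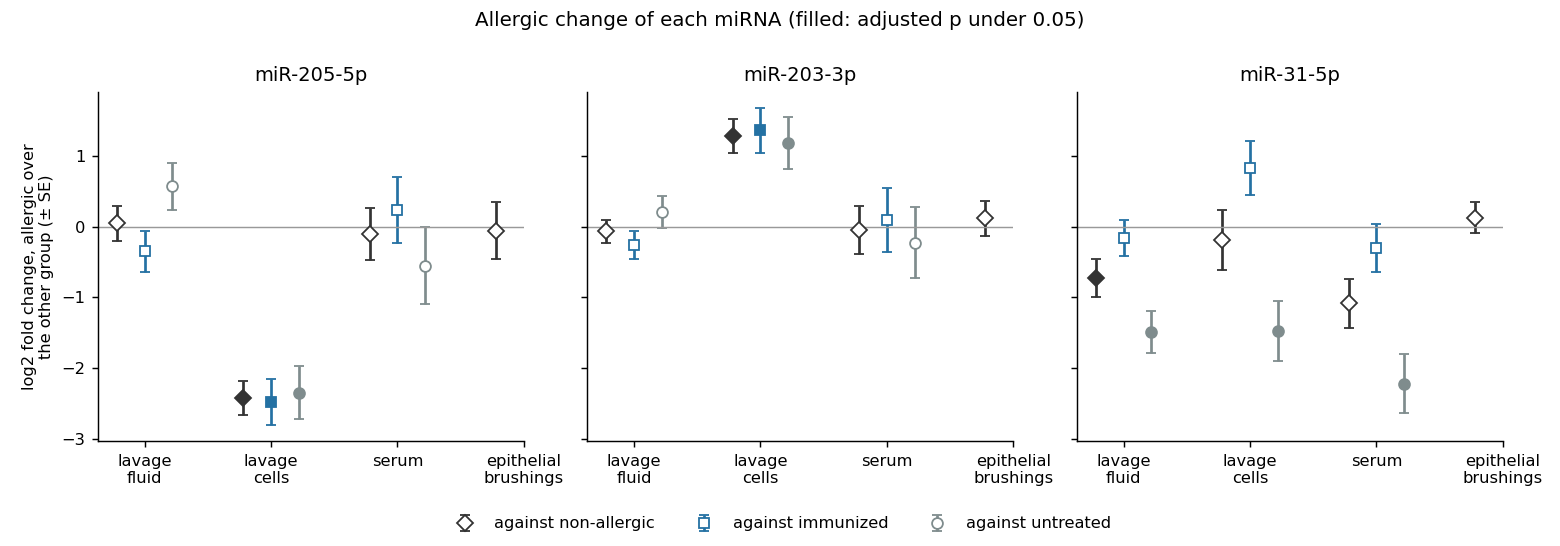
Log2 fold change of allergic over the other group for each member and compartment, with its standard error, against all non-allergic (diamonds), immunized (squares) and untreated libraries (circles); filled symbols have an adjusted p under 0.05. miR-205-5p (-2.42) and miR-203-3p (1.29) moved in opposite directions in cells against either control, while miR-31-5p has its lowest values against untreated mice in fluid, cells and serum.

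The allergic change was then compared between compartments in a single model of all 48 libraries. For miR-205-5p the change in fluid exceeded that in cells by 2.69 ± 0.47 on the log2 scale (adjusted p = 7.85e-05, with 18.3% of 360 microRNAs called). The change in cells minus that in serum was -2.54 ± 0.47 (adjusted p = 1.00e-04, with 30.3% called) and minus that in brushings was -2.43 ± 0.61 (adjusted p = 0.00885, with 12.8% called), the last lost without immunized brushing library 2 (-1.98, adjusted p = 0.0690) or allergic brushing library 3 (-1.98, adjusted p = 0.0681). For miR-203-3p the change in fluid minus that in cells was -1.13 ± 0.40 (adjusted p = 0.0437), and the change in cells exceeded that in serum by 1.13 ± 0.41 (adjusted p = 0.0328). The change in cells minus that in brushings was not called (1.11 ± 0.51, adjusted p = 0.149). Both calls were lost with total count scaling. The first was lost without allergic fluid library 4, untreated cell library 1, immunized cell library 1 or 2, allergic cell library 1 or 5, or allergic serum library 1 (adjusted p up to 0.0641). The second was lost without immunized brushing library 1 or 2, allergic brushing library 1, 2 or 3, immunized serum library 4, or allergic serum library 1, 2, 6 or 7 (adjusted p up to 0.0843). For miR-31-5p no pair of compartments was called, with log2 differences from -0.72 for fluid minus brushings (0.833% of microRNAs called) to 1.10 for brushings minus serum (0% called by edgeR, 22 microRNAs at an unadjusted p under 0.05). The change in fluid minus that in serum was not called for any member (8.06% called), with log2 differences of 0.16 for miR-205-5p, 0.00 for miR-203-3p and 0.38 for miR-31-5p.

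Ratios of the members within a library do not depend on how libraries are scaled. In allergic cells there were 0.264, 0.461 and 1.11 counts of miR-203-3p per count of miR-205-5p (lowest, median and highest), against 0.0171, 0.0368 and 0.145 in non-allergic cells, and the groups did not overlap. The ratio was 12.3-fold higher in allergic cells (mean log2 -0.97 ± 0.73 in allergic and -4.59 ± 1.03 in non-allergic libraries, SD, n = 7 each; two-sided exact permutation test within library sets, p = 0.00278, adjusted over 12 ratio tests p = 0.0333), and 0.00278 is the smallest p these libraries can give. For comparison, the medians in serum were 0.322 in allergic and 0.311 in non-allergic mice, and fluid had medians of 0.0410 in allergic and 0.0449 in non-allergic mice. Brushings had medians of 0.0382 in allergic and 0.0333 in non-allergic mice.

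The other ratios missed the threshold. miR-31-5p over miR-205-5p in cells had medians of 0.297 in allergic and 0.0619 in non-allergic libraries, a 4.75-fold difference with overlapping groups (exact permutation p = 0.00833, adjusted p = 0.05, not under it), which passed without untreated cell library 2 (exact permutation, adjusted p = 0.0167). miR-203-3p over miR-31-5p was 2.58-fold higher in allergic cells and 2.34-fold higher in allergic serum (exact permutation p = 0.0167 and adjusted p = 0.05 for each). The first of these passed without allergic cell library 6 and the second without immunized serum library 4 (exact permutation, adjusted p = 0.0333 for each). In serum the 7 allergic libraries lay between 9.70 and 16.0 for this ratio, against 3.67 to 20.5 in immunized and 0.907 to 4.80 in untreated libraries, so that allergic libraries exceeded all untreated ones and overlapped the immunized ones. Brushings, with 8 possible relabellings, could not give a p below 0.25.

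**Figure D3:**
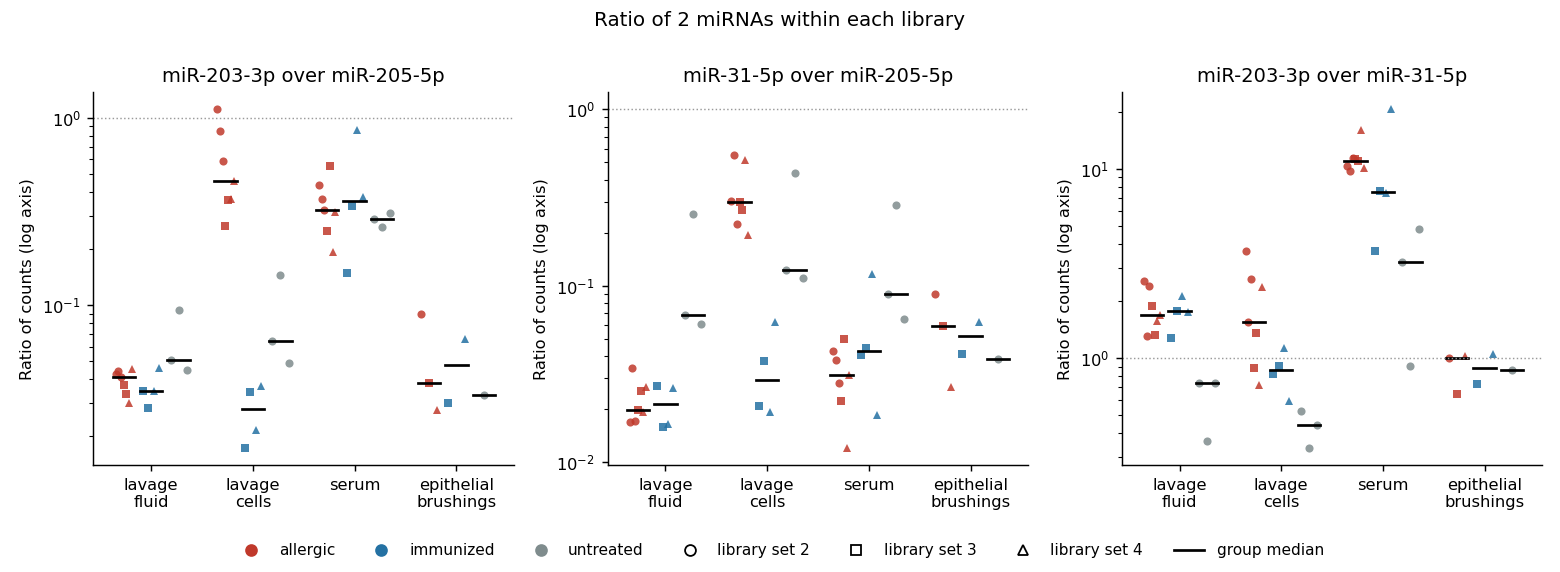
Ratio of the counts of 2 members within each library (log axis; dotted line at 1), by compartment and treatment, with group medians as bars. The ratio of miR-203-3p to miR-205-5p in allergic cells (0.264 to 1.11) lies above all non-allergic cell libraries (0.0171 to 0.145).

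Each member was also set against the 11 other epithelial microRNAs of its own library. Per 100 counts of that list, miR-205-5p had 8.48 to 11.7 counts in allergic and 5.96 to 13.5 in non-allergic brushings, and 7.81 to 11.6 in allergic and 4.47 to 14.9 in non-allergic fluid, which overlap. In cells it had 4.39 to 8.58 counts in allergic libraries, against 9.31 to 17.9 in immunized libraries, which did not overlap, and 5.47 to 13.3 in untreated ones, which did. Serum stood far off, with 43.0 to 99.1 counts in allergic and 35.9 to 112 in non-allergic libraries, so that miR-205-5p was high there relative to the other epithelial microRNAs. miR-203-3p per 100 counts of the list was 0.303 to 0.440 in allergic and 0.379 to 0.438 in non-allergic fluid, among the narrowest ranges seen. In cells it was 1.68 to 6.10 in allergic libraries, against 0.252 to 0.776 in non-allergic ones, with no overlap, and in serum 15.8 to 37.7 in allergic and 9.76 to 35.9 in non-allergic libraries. miR-31-5p in cells had 0.842 to 3.81 counts in allergic libraries, against 0.222 to 0.646 in immunized and 1.19 to 2.37 in untreated ones. These values are a description and were not tested.

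**Figure D4:**
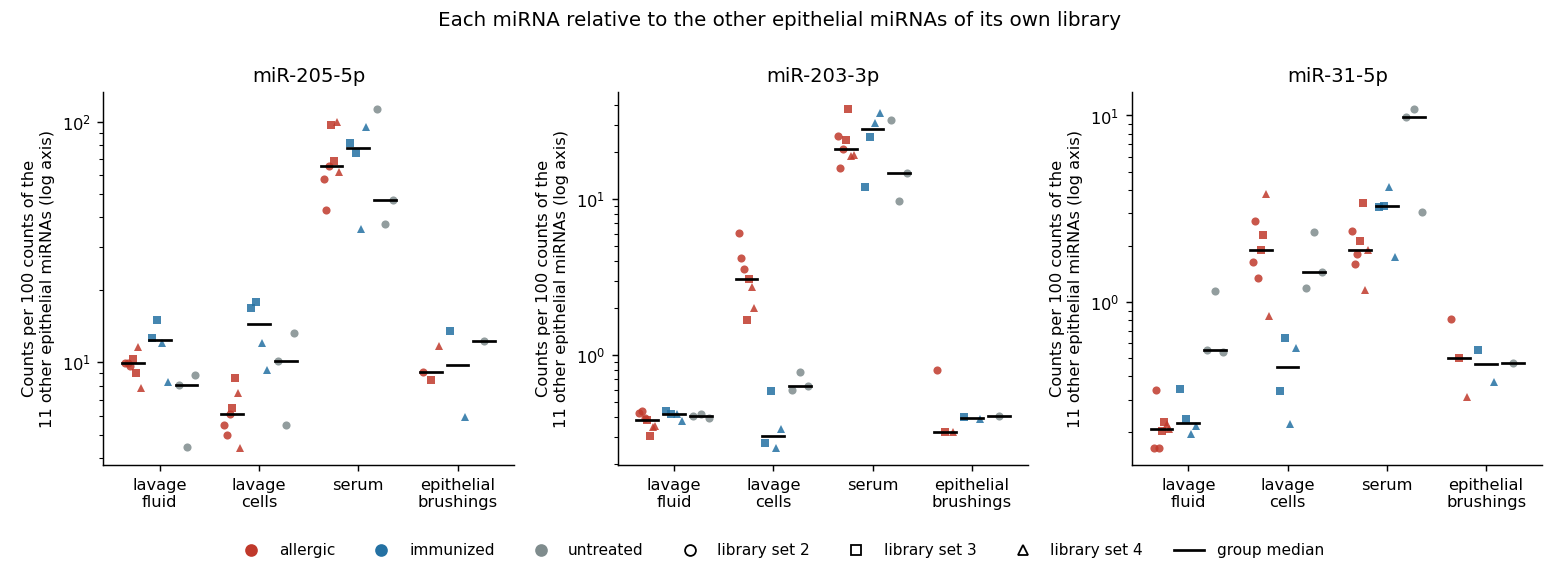
Counts of each member per 100 counts of the 11 other epithelial microRNAs in the same library (log axis), by compartment and treatment, with group medians as bars. In cells, miR-205-5p in allergic libraries (4.39 to 8.58) lies below immunized libraries (9.31 to 17.9) and overlaps untreated ones (5.47 to 13.3), and miR-203-3p in allergic cells (1.68 to 6.10) lies above non-allergic cells (0.252 to 0.776) and below serum (9.76 to 37.7).

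The opposite arms of miR-205 and miR-203 were far scarcer. miR-205-3p summed to 15 counts in the 3 allergic and 36 in the 3 non-allergic brushing libraries, beside 15238 and 20985 counts of miR-205-5p, and was at 0 in all 14 cell libraries. miR-203-5p summed to 5 counts in allergic and 3 in non-allergic brushings. miR-31-3p was the only opposite arm to pass the filter on low counts, with 55.2 ± 28.3 CPM in allergic and 70.8 ± 39.1 CPM in non-allergic fluid (SD, n = 7 each) and a log2 fold change of -0.39 ± 0.36 (adjusted p = 0.442). Against untreated mice it was -1.03 ± 0.51 in fluid (adjusted p = 0.140), and in serum it was -0.08 ± 0.51 (adjusted p = 0.967), where miR-31-5p fell by 2.22. The 3 untreated serum libraries held only 1 to 11 counts of miR-31-3p, 18 in all, and a difference between the arms was not tested. In serum the arms of miR-31 were closer in number. There were 122 counts of miR-31-3p in allergic and 142 in non-allergic libraries (124 of them in immunized ones), beside 280 and 374 counts of miR-31-5p. In cells miR-31-3p summed to 27 counts in the 7 allergic and 11 in the 7 non-allergic libraries, too few to compare.

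The microRNAs whose levels most resembled each member over the 48 libraries differed between members. For miR-205-5p they were miR-375-3p (Pearson r of log2 CPM 0.95), miR-200b-5p (0.89), miR-872-3p (0.87), miR-3102-3p (0.87) and miR-99a-5p (0.87). For miR-31-5p they were miR-34c-5p (0.87) and miR-34b-5p (0.85), known from multiciliated cells, with miR-182-5p (0.85), miR-345-5p (0.85) and miR-141-3p (0.85). For miR-203-3p they were less alike: miR-10a-5p (0.80), let-7b-3p (0.79), miR-151-3p (0.72), miR-148a-3p (0.69) and miR-214-3p (0.68). These values mostly follow the compartments, which the libraries share.

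With the mean of each compartment and library set taken away, miR-205-5p remained close to other epithelial microRNAs, miR-429-3p (r 0.90), miR-375-3p (0.86) and miR-200a-3p (0.86). miR-203-3p then went most with miR-148a-3p (0.59), miR-181c-5p (0.56) and the lymphocyte microRNA miR-150-5p (0.55). The deviations keep the difference between allergic and non-allergic libraries, so microRNAs that change alike with allergy come out as close. The 3 microRNAs closest to miR-205-5p fell in allergic cells, as it did (log2 -1.45, -1.96 and -1.38). The 3 closest to miR-203-3p rose there, as it did (log2 2.04, 2.19 and 3.59). Neither likeness is therefore a separate result. miR-31-5p went most with miR-296-5p (0.62), miR-450b-3p (0.57) and miR-351-5p (0.57). Between the members these deviations had r of -0.18 for miR-205-5p and miR-203-3p, 0.00 for miR-205-5p and miR-31-5p and 0.03 for miR-203-3p and miR-31-5p, over 48 libraries. The correlations are descriptions across libraries that share batches, depth and treatment.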

How the data were processed

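Small RNA was sequenced from 48 libraries of mouse lavage fluid, lavage cells, serum and epithelial brushings. The authors deposited expected counts per mature microRNA in 3 tables, 1 per library set, in which reads matching several entries are split (5.23% of values were not whole). RPM values for all libraries were deposited by the authors in a separate table. Per the submitters' processing notes, cutadapt and DESeq2 were used and mm10 was the build. No aligner is named in the sources used here.

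Expected counts were rounded to whole numbers before testing. Each comparison was fitted over all microRNAs with edgeR 4.0.16 in R 4.3.3 (TMM scaling, robust dispersions, library set as a term), with Benjamini-Hochberg adjustment over all microRNAs tested. Called means an adjusted p under 0.05. The filter was filterByExpr with a minimum count of 10. It was given allergic and non-allergic libraries as groups within a compartment, and the compartments as groups in fits across them. In the model of all 48 libraries the set term was fitted within each compartment. Intervals are 95%, from the standard error and the test's degrees of freedom. Levels were scaled over the 360 microRNAs that passed in the 48 libraries. Ratios had 0.5 added to both counts and were tested by two-sided exact permutation within library sets. Scripts were tested on simulated data. The labels do not say whether libraries come from separate mice or whether equal numbers mark 1 mouse, and p-values therefore reflect the library-to-library spread alone, which may be technical. The microRNAs named beside the members are the opposite arms, the 5 of highest correlation in level and 3 in deviation, and the 2 furthest list members. The members and lists were chosen with earlier results of these data known. Alternatives were other scalings, DESeq2 1.42.0, no filter, no set term, each set alone, the authors' RPM with limma 3.58.1 on log2(RPM + 1), a replicate block and each library left out. The filter given the design matrix and the difference of the untreated and immunized contrasts were chosen after seeing the data.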

Additional observations from a re-analysis of the deposited data

Results flagged for a closer look

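In cells the contrast of miR-31-5p against untreated mice lay below that against immunized mice by -2.30 on the log2 scale (adjusted p = 0.0456, edgeR test of the difference). Untreated and immunized libraries belong to different sets, and the kind of control and the set cannot be told apart. The call was lost without any 1 of 11 of the 14 libraries, the 3 others being untreated 1, immunized 4 and allergic 7, at values from -2.43 to -1.95.

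The allergic change of miR-205-5p differed between cells and each other compartment, by 2.69 for fluid minus cells (adjusted p = 7.85e-05), -2.43 for cells minus brushings (adjusted p = 0.00885) and -2.54 for cells minus serum (adjusted p = 1.00e-04), all on the log2 scale by the edgeR test of the difference. The second was lost without immunized brushing library 2 or allergic brushing library 3 (-1.98 for each).

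The allergic change of miR-203-3p differed in the opposite direction, by -1.13 for fluid minus cells (adjusted p = 0.0437) and 1.13 for cells minus serum (adjusted p = 0.0328), while cells minus brushings was not called (1.11, adjusted p = 0.149). The first was lost in 7 and the second in 10 of 48 removals of a library (fluid allergic 4, cells untreated 1, cells immunized 1 and 2, cells allergic 1 and 5 and serum allergic 1 for the first; brushings immunized 1 and 2, brushings allergic 1, 2 and 3, serum immunized 4 and serum allergic 1, 2, 6 and 7 for the second), at adjusted p up to 0.0641 and 0.0843. Epithelial and blood-cell microRNAs changed in the same cell libraries, and their part in these differences was not tested.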

How the results depend on the processing

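Of 301 values of the members under other settings, 252 kept their direction and their side of the threshold, and 0 of the 19 that changed sign had been called. The fall of miR-205-5p and the rise of miR-203-3p in cells against all non-allergic mice were called under each setting that gives a test and in each of 14 removals of a library. The cause of the differences below was not tested; values are log2 differences. The 42 results whose values are not printed include 13 calls, of which 0 were lost, and 1 other, the ratio of miR-31-5p over miR-205-5p in serum, was called without immunized serum library 4. Depth limits cells most, where untreated libraries held 5 to 18 counts of miR-203-3p and 10 to 55 of miR-31-5p, and the 3 brushing libraries per group leave wide intervals.

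With total count scaling the median of all microRNAs moved to -0.32 in cells and -0.21 in fluid, against 0.04 and 0.01 with TMM. It turned miR-205-5p in fluid to -0.16, miR-203-3p fluid minus serum to 0.46, fluid minus brushings to 0.032 and brushings minus serum to 0.42 in non-allergic mice, and miR-205-5p fluid minus brushings to 0.020 in allergic mice. It ended the calls of miR-203-3p in cells against untreated (1.05) and immunized mice (0.94), of the difference of the miR-31-5p contrasts in cells (-1.94, adjusted p = 0.128) and of the miR-203-3p change, fluid minus cells (-1.26) and cells minus serum (1.19), and it called miR-205-5p cells minus serum (0.98). DESeq2 size factors ended the call of the miR-31-5p difference in cells (-2.43, adjusted p = 0.0679) and turned miR-203-3p brushings minus serum (0.046) and its change, fluid minus serum (0.063).

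With no filter, miR-205-5p (0.026) and miR-203-3p (0.086) changed sign in serum, as did miR-203-3p fluid minus serum (0.032) and brushings minus serum (0.089) in non-allergic mice and the miR-205-5p change, fluid minus serum (-0.11). The miR-31-5p difference in fluid (-1.44) was then called, while miR-203-3p in cells against untreated mice (1.28, adjusted p = 0.0542) and miR-31-5p cells minus serum (0.76) were not. The filter given the design matrix ended the call of miR-31-5p in fluid (-0.70). The authors' RPM with limma turned miR-205-5p in fluid (-0.080) and serum (0.075) and miR-203-3p in serum (0.10). Without the set term miR-205-5p in fluid was -0.064.

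Within set 2 the change was 0.87 for miR-205-5p, 0.39 for miR-203-3p and -1.38 for miR-31-5p in fluid, -1.59 for miR-31-5p in cells, -2.07 for miR-31-5p in serum and 0.81 for miR-203-3p in brushings. Within set 3 miR-31-5p was 1.36 in cells and 0.014 in serum, miR-203-3p was 1.09 in serum and -0.43 in brushings, and miR-205-5p was -0.78 in brushings. Within set 4 miR-31-5p was -0.011 in fluid and -0.65 in serum, miR-205-5p was -3.01 in cells and 1.07 in brushings, and miR-203-3p was 0.86 in cells.

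Whether equal numbers mark 1 mouse was not tested. Deviations of same-numbered libraries correlated over 0.1 in 9 of 14 pairs of fluid and cells (r 0.027 to 0.28). They did so in 2 of 14 pairs of fluid and serum (r -0.15 to 0.27) and 2 of 14 of cells and serum (r -0.24 to 0.19). Between allergic and untreated libraries of equal number they did so in 1 of 3 pairs in fluid, 1 of 3 in cells and 0 of 3 in serum. With a replicate block miR-31-5p was called in cells (-1.21, adjusted p = 0.0310) and serum (-1.89, adjusted p = 0.0173), miR-203-3p in fluid turned to 0.21, and miR-203-3p in cells against untreated mice was not called (1.02). With the replicate block shared by compartments, miR-205-5p fluid minus brushings (0.040) and miR-203-3p brushings minus serum (0.091) changed sign in non-allergic mice. The block moved the calls in serum to 21, against 0, and could not be fitted in the 6 brushing libraries. Calls in brushings were 9, against 16 with no filter, 4 with the RPM and limma and 0 without the set term. Calls of allergic against immunized fluid were 12, against 23 with total count scaling and 29 with no filter, and those of the difference of the contrasts in fluid were 3, against 6 and 24. In cells that difference had 7 calls, against 2 with DESeq2 size factors and 2 with total count scaling, and in serum 9, against 16 with no filter. Allergic against untreated serum had 38 calls and 18 with total count scaling, fluid minus brushings in allergic mice 64 and 42, and the change, fluid minus brushings, 3 and 1. Leaving out 1 library moved several counts of calls by over 1.5 times. The 9 in brushings became 0 (without immunized 2), 4 (immunized 1 or allergic 2), 19 (allergic 1) or 27 (untreated 1). The 12 of allergic against immunized fluid became 0 (immunized 2, 3 or 4, allergic 4 or 6), 20 (allergic 7) or 21 (allergic 5), and the 97 in cells became 64 (immunized 3). The 38 of allergic against untreated serum became 15, 21 or 22 (allergic 2, 1 or 3) or 23 (untreated 3). The counts of the difference of the contrasts ran from 0 to 10 in fluid, 1 to 9 in cells and 7 to 25 in serum, the last with 25 without untreated 2 and 23 without immunized 3. Leaving out a brushing library took fluid minus brushings, 40 in non-allergic mice, to 17 (immunized 2) or 18 (immunized 1), and 64 in allergic mice to 27 (allergic 3) or 35 (allergic 2). The change, fluid minus brushings, then ran from 0 to 6 calls, and cells minus brushings, with 46, had 17 (immunized 2), 20 (allergic 3), 21 (immunized 1 or allergic 2) or 23 (untreated 1).

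Leaving out each library in turn, the change in fluid ran from -0.16 to 0.17 for miR-205-5p, -0.17 to 0.018 for miR-203-3p and -0.84 to -0.52 for miR-31-5p. In cells miR-31-5p ran from -0.42 to 0.094, in serum miR-205-5p from -0.29 to 0.22 and miR-203-3p from -0.24 to 0.27, and in brushings miR-205-5p from -0.61 to 0.36, miR-203-3p from -0.13 to 0.30 and miR-31-5p from -0.028 to 0.29. In cells miR-203-3p against untreated mice ran from 0.92 to 1.42, and miR-31-5p from -1.76 to -1.09 against untreated and 0.64 to 1.23 against immunized mice. The difference of these contrasts ran from -1.75 to -1.15 in fluid, -2.73 to -1.95 in cells and -2.18 to -1.51 in serum for miR-31-5p and from -0.16 to 0.64 in cells for miR-205-5p. In allergic mice fluid minus brushings ran from -0.13 to 0.23 for miR-205-5p and -1.45 to -0.96 for miR-31-5p. In non-allergic mice miR-203-3p ran from -0.31 to 0.25 for fluid minus serum, -0.20 to 0.078 for fluid minus brushings and -0.24 to 0.41 for brushings minus serum, miR-205-5p from -0.49 to 0.24 for fluid minus brushings and 0.29 to 0.85 for cells minus serum, and miR-31-5p from 0.64 to 1.05 for cells minus serum. The difference of the allergic change ran from -1.45 to -1.04 (fluid minus cells), 0.80 to 1.44 (cells minus serum) and -0.48 to 0.18 (fluid minus serum) for miR-203-3p, and from -2.94 to -1.98 (cells minus brushings) and -0.29 to 0.34 (fluid minus serum) for miR-205-5p. The log2 ratios ran from 1.97 to 2.61 (miR-31-5p over miR-205-5p, cells), 1.15 to 1.62 (miR-203-3p over miR-31-5p, cells) and 0.88 to 1.51 (the same, serum).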
